A study of Sus scrofa with 12 samples.

Results

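Binding of the transcription factor C/EBP-β was examined around 10 genes of prostaglandin synthesis and breakdown in the endometrium of pregnant pigs. The genes were taken from a fixed list: PLA2G4A, PTGS1, PTGS2, PTGES, PTGES2, PTGES3, PTGIS, AKR1B1, CBR1 and HPGD. All 10 were found among the 19550 protein-coding genes that the RefSeq table of Sscrofa11.1 places on the assembled chromosomes. The data are lists of ChIP-seq peak summits, each 1 bp long, from endometrial tissue of day 12 and day 15 of pregnancy, with 3 libraries per day made with an antibody against C/EBP-β. The labels give no breed, age or treatment and leave unsaid if replicates came from separate animals, and 6 input samples were not analysed here. Any p-value over libraries therefore measures only the spread between these libraries, which may be technical. Peak lists hold no expression values, so the tissue label was not checked against marker genes.

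Prostaglandins are made from arachidonic acid, which cytosolic phospholipase A2 (PLA2G4A) frees from membranes and the cyclooxygenases PTGS1 and PTGS2 turn into the common precursor PGH2. Terminal synthases then make PGE2 (PTGES, PTGES2, PTGES3), prostacyclin (PTGIS) or PGF2α (AKR1B1), CBR1 converts PGE2 to PGF2α, and HPGD starts their inactivation. In the pig, endometrial PGF2α brings about regression of the corpora lutea at the end of the cycle. Around the time the conceptuses signal their presence, PGE2 and PGF2α are both made in the uterus, and the balance between them is held to matter for keeping the corpora lutea.

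The 6 lists held 6557, 33294 and 57728 summits on the chromosomes for day 12 replicates 1 to 3, and 70152, 16529 and 11960 for day 15 replicates 1 to 3. Read counts are not in the lists, so sequencing depth is unknown, and a missing summit is not evidence that the factor was absent. Peak names fall into 2 sets, with a directory path (set A: day 12 replicate 1, day 15 replicates 2 and 3) and without (set B: day 12 replicates 2 and 3, day 15 replicate 1). The set A lists are the 3 shortest. The names in day 15 replicates 2 and 3 share a sample code, and those in day 12 replicate 1 and day 15 replicate 3 do not name the protein, so their antibody rests on the labels alone. Each summit carries the authors' score for significance, on a −log10 scale, printed below mainly as a percentile within its own list, where a high percentile is a high score.

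Within 5 kb of either end of a gene, PTGS2 and AKR1B1 had a summit in all 6 libraries, and PTGES2 and PTGES3 in all but day 12 replicate 1. PTGES, PTGIS and CBR1 had summits in the 3 libraries of set B and in 0 of the 3 of set A. PTGS1 had them in day 12 replicate 3 and day 15 replicate 1, HPGD in day 12 replicate 2 and day 15 replicate 1, and PLA2G4A in day 15 replicate 1 alone. Per library, a summit was found for 2, 8 and 8 of the 10 in day 12 replicates 1 to 3, and 10, 4 and 4 in day 15 replicates 1 to 3. Over all protein-coding genes the shares were 17.2%, 38.4% and 54.1% on day 12 and 64.8%, 44.6% and 37.6% on day 15.

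**Figure D1:**
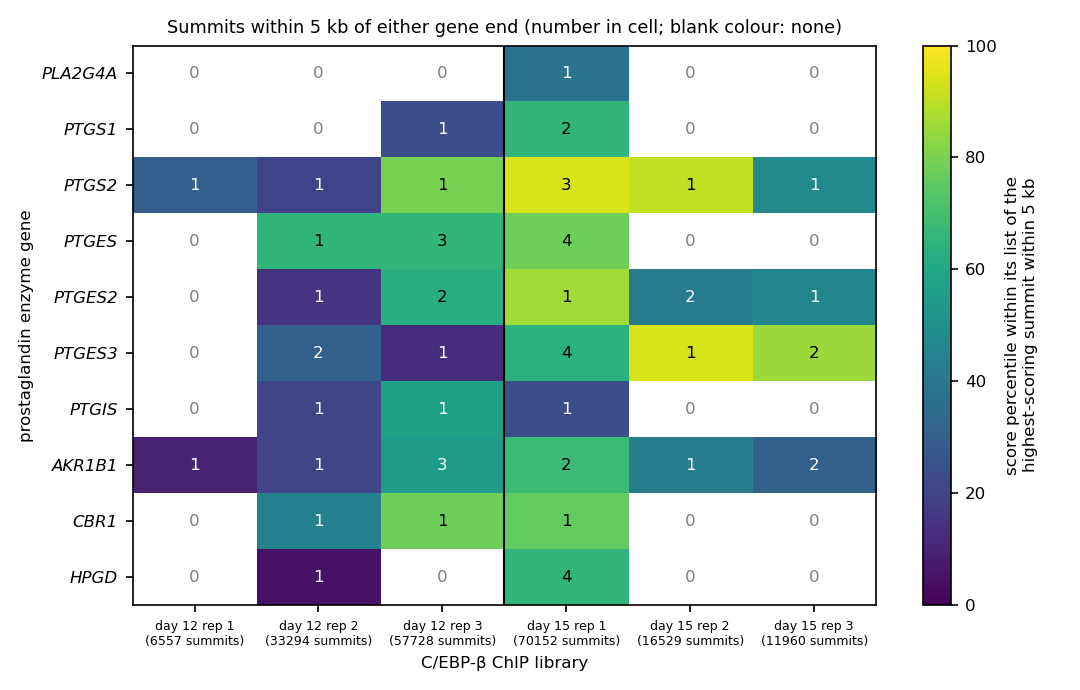
Number of C/EBP-β summits within 5 kb of either end of each prostaglandin enzyme gene (rows) in each library (columns, with list length); colour gives the score percentile of the highest-scoring of them within its list, and white cells have none. PTGS2 and AKR1B1 are filled in all 6 columns, and day 15 replicate 1, the longest list, is filled in all 10 rows.

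When at least 2 of 3 libraries of a day were required, 7 of the 10 genes were counted on day 12 (PTGS2, PTGES, PTGES2, PTGES3, PTGIS, AKR1B1 and CBR1), against 38.1% of all protein-coding genes. On day 15 the count was 4 of 10 (PTGS2, PTGES2, PTGES3 and AKR1B1), against 46.3%. Those 4 were counted on both days, against 30.5% of all genes. The 3 genes counted on day 12 only, PTGES, PTGIS and CBR1, each had a summit in day 15 replicate 1 as well, for PTGIS at its other end. For these 3 genes presence followed the set and did not differ by day within either set: both day 12 libraries and the day 15 library of set B had a summit, and no library of set A did. A summit in all 6 libraries was found for 2 of 10, against 13.1% of all genes, and a summit in no library for 0 of 10, against 29.5%. Presence in all 3 day 15 lists with at most 1 of day 12 was seen for 0 of 10 (8.95% of all genes), and the reverse arrangement also for 0 (0.716%). The day 12 count of 7 fell to 2 when either replicate 2 or replicate 3 of day 12 was left out, as the shortest list then had to hold a summit. When every list was cut to its 6557 best-scoring summits, called lists of equal length here, 0 genes remained on day 12 and 2 on day 15 (PTGS2 and PTGES3), against 9.68% and 20.3% of all genes. The cut went deeper in set B, dropping summits below percentiles 80.3, 88.6 and 90.7 (day 12 replicates 2 and 3, day 15 replicate 1). In set A the limits were 60.3 and 45.2 in day 15 replicates 2 and 3, and day 12 replicate 1 was used whole. Set A gives more lists to day 15 than to day 12, so day and set cannot be told apart in these counts.

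PTGS2, the inducible cyclooxygenase, had a site of all 6 libraries at its end (chromosome 9, 127850164 to 127858866). Summits of all 6 libraries lay within a stretch of 131 bp just beyond the end of the gene with the higher coordinate, called its upper end here (127858894 to 127859024). They were 28 to 158 bp from that end. The gene table gives no strand or exons, so whether this end is the transcription start was not determined. In day 12 replicates 1 to 3 the scores were 5.96, 3.77 and 15.9, at percentiles 30, 20 and 80 of their lists. In day 15 replicates 1 to 3 they were 55.4, 21.6 and 6.1, at percentiles 94, 91 and 47. The day 12 and day 15 percentiles overlap, and the highest values came from day 15 replicates 1 and 2. With lists of equal length the site was retained in 1 of 3 day 12 libraries (replicate 1, whose list is used whole) and in 3 of 3 day 15 libraries. The same presence in all 6 libraries was shared by 2551 other protein-coding genes.

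A second region of all 6 libraries lay 50 kb below the lower end of PTGS2 (127800151 to 127800189, 39 bp). Its percentiles were 81, 98 and 94 on day 12 and 99, 86 and 50 on day 15, and it was retained in all 6 lists of equal length. The 50 kb limit falls inside this region: 4 of its summits lie 49975 to 49999 bp from the gene, and those of day 12 replicate 1 and day 15 replicate 2 lie 50013 and 50002 bp away. Between it and the gene, a region 18 kb below the lower end had summits in the 3 set B libraries only, at percentiles 21, 53 and 59.

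PLA2G4A, whose product releases the arachidonic acid that PTGS2 uses, is annotated directly beside PTGS2 (chromosome 9, 127853581 to 128164825). The gene models overlap by 5286 bp, so the site at the upper end of PTGS2 lies inside the PLA2G4A model, 5.4 kb from its lower end and just past the 5 kb limit. The PLA2G4A model is long and may extend past the functional gene. Its ends, what counts as inside it and the density at its ends hold for the model as listed. The single summit within 5 kb of PLA2G4A, in day 15 replicate 1 at percentile 38, lies within 5 kb of PTGS2 too. The body of PLA2G4A, 311 kb long, held 30 regions, counting summits of any library joined within 200 bp, of which 10 had summits in 3 or more libraries. The most recurrent of them, apart from the PTGS2 site, were 99.3 kb and 148.0 kb from the lower and 7.4 kb from the upper end. The region at 99.3 kb (127952827 to 127952845) had a summit in 3 of 3 day 12 libraries, at percentiles 60, 85 and 92, and in day 15 replicate 1 at percentile 95. At 148.0 kb (128001631 to 128001667) the same 4 libraries had summits, at percentiles 55, 86, 91 and 90. A region 90.7 kb inside scored high in the 3 set B libraries, at percentiles 94, 98 and 95, and had no summit in set A. Inside the gene, day 15 replicates 2 and 3 had a summit at the PTGS2 site and 1 further summit each.

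**Figure D2:**
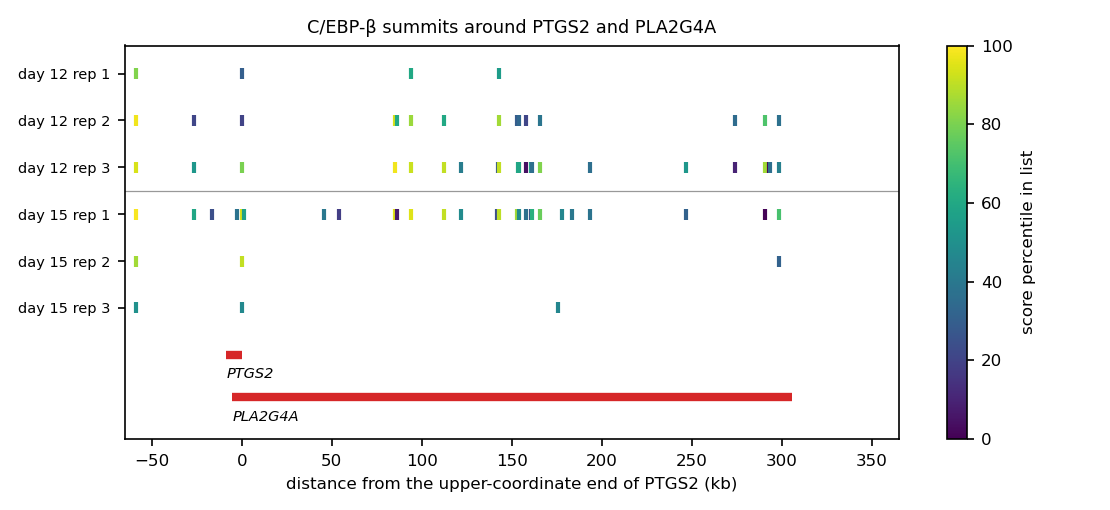
C/EBP-β summits of each library (rows) by distance in kb from the upper-coordinate end of PTGS2, with the PTGS2 and PLA2G4A gene models as red bars and the score percentile within each list as colour; summits inside a gene or up to 51 kb outside are shown. All 6 rows have a mark at the upper end of PTGS2 and at the left edge, 50 kb below the gene, while the body of PLA2G4A is filled mainly in day 12 replicates 2 and 3 and day 15 replicate 1.

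PTGS1, the constitutive cyclooxygenase (chromosome 1, 262456106 to 262482159), had no recurrent site at its ends. Its 3 regions within 5 kb came from 1 library each, at percentile 24 in day 12 replicate 3 and at 66 and 9 in day 15 replicate 1. A region 6.6 kb above its upper end (262488711 to 262488748) had summits in 3 of 3 day 12 libraries, at percentiles 40, 52 and 53, and in 0 of 3 day 15 libraries. The nearest day 15 summit was 3.85 kb away. Further out, 46.0 kb below the gene and inside MRRF, a region was seen in all libraries but day 15 replicate 2, at percentiles between 15 and 69.

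The 3 PGE2 synthase genes differed in where their summits lay. PTGES, the inducible microsomal enzyme (chromosome 1, 269911785 to 269924481), had a site inside the gene 4.1 kb from its lower end (269915858 to 269915896) in the 3 set B libraries, at percentiles 66, 66 and 78. Summits beyond its upper end formed a series of regions up to 42.6 kb away, those at 5.9 kb, 29.2 kb and 42.6 kb with a summit in day 15 replicate 2. Day 12 replicate 1 and day 15 replicate 3 had 0 summits within 50 kb of PTGES, while the other libraries had 6 and 10 on day 12 and 13 and 3 on day 15.

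PTGES2, a second PGE2 synthase (chromosome 1, 268585725 to 268591356), had summits at its upper end in all 3 day 15 libraries and in day 12 replicate 3. They fell into neighbouring regions: 268591075 to 268591179, inside the gene and 0.23 kb from the end, with percentiles 63 in day 12 replicate 3 and 86 and 36 in day 15 replicates 1 and 2, and 268591421 to 268591490 just outside, in day 15 replicates 2 and 3. Day 12 replicate 2 reached the count through a summit 1.6 kb below the lower end, at percentile 15. Between PTGES2 and SLC25A25, which encodes a mitochondrial carrier, a region 6.8 kb from PTGES2 had summits in all libraries but day 15 replicate 3, and it lies within 5 kb of SLC25A25. It scored at percentile 83 in day 15 replicate 1 and at 3 to 72 in the other 4 libraries.

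PTGES3, which encodes the HSP90 co-chaperone p23 with PGE2 synthase activity (chromosome 5, 22000335 to 22022830), had a site inside the gene 1.3 kb from its upper end (22021368 to 22021664). It was found in 5 libraries. Percentiles were 31 and 13 in day 12 replicates 2 and 3 and 50, 94 and 85 in day 15 replicates 1 to 3, so the 3 day 15 values all lay above the day 12 ones, of which day 12 replicate 1 gave none. Lists of equal length kept it in day 15 replicates 2 and 3, which are of set A, and in 0 of 3 day 12 libraries. In set B, where the cut went deeper, it was kept in no list of either day. A region of all 6 libraries 35.0 kb above the gene lies inside NACA, which encodes a nascent-polypeptide-associated subunit, and its nearest gene end is that of NACA.

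**Figure D3:**
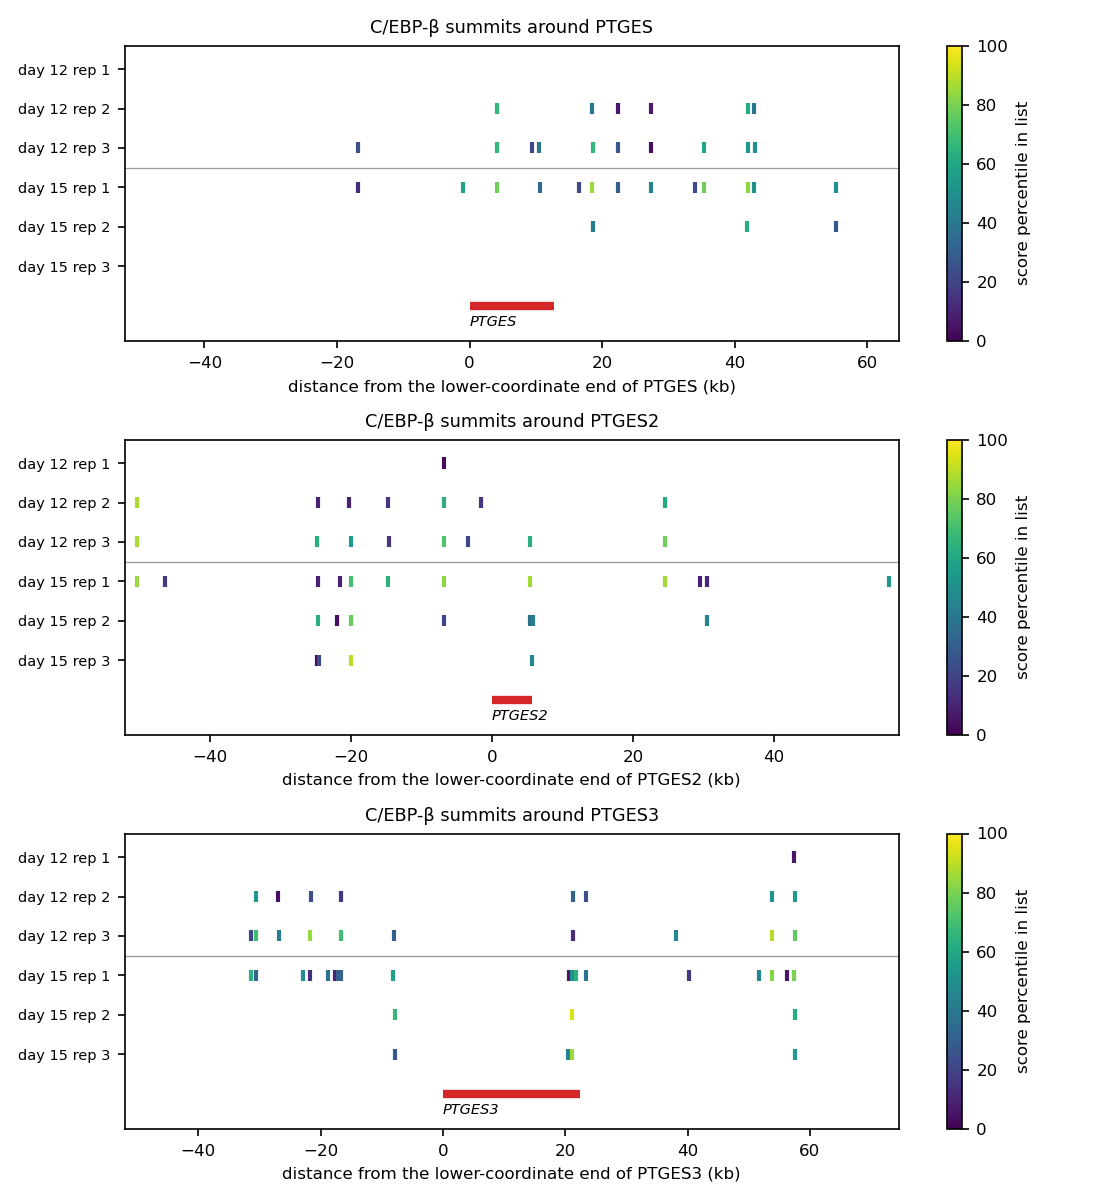
C/EBP-β summits of each library (rows) by distance in kb from the lower-coordinate end of PTGES, PTGES2 and PTGES3 (red bars), up to 51 kb outside each gene, coloured by score percentile within the list. Rows of day 12 replicate 1 and day 15 replicate 3 are empty for PTGES. The 3 day 15 libraries have marks at the upper ends of PTGES2 and PTGES3, as do day 12 replicate 3 at both and day 12 replicate 2 at PTGES3.

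AKR1B1, aldose reductase with PGF2α synthase activity, has a gene model of 159 kb in the table (chromosome 18, 14593516 to 14752316). Like that of PLA2G4A, this model is long and may extend past the functional gene, and at which end was not determined. Both of its ends, what counts as inside it and the density at its ends therefore hold for the model as listed. A region at its lower end (14593590 to 14593901, 0.23 kb inside) had summits in 5 libraries, at percentiles 10 and 55 in day 12 replicates 1 and 3 and 68, 42 and 27 in day 15 replicates 1 to 3. BPGM, the bisphosphoglycerate mutase gene, ends 195 bp away, so the same summits count for both genes. Day 12 replicate 2 had its only summit within 5 kb at the other end, 632 bp beyond it at percentile 21, and day 12 replicate 3 had a summit 607 bp beyond that end. Presence of AKR1B1 in all 6 libraries thus rests on both ends and not on 1 shared site.

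Inside the AKR1B1 model, a region 46.4 kb from the upper end (14705861 to 14705873) separated the days. It had a summit in 3 of 3 day 12 libraries, at percentiles 43, 96 and 99, and in 0 of 3 day 15 libraries, also with lists of equal length, and the nearest day 15 summit lay 19.3 kb away. The next, 27.2 kb from the upper end (14725017 to 14725131), had percentiles 27, 91 and 89 on day 12 and was seen on day 15 in replicate 1 alone, at percentile 21. Another region of those 4 libraries, 31.7 kb below the gene and inside BPGM, had percentiles 17, 96 and 95 on day 12 and 85 in day 15 replicate 1. Day 15 replicates 2 and 3 had no summit inside the gene farther than 5 kb from its lower end.

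**Figure D4:**
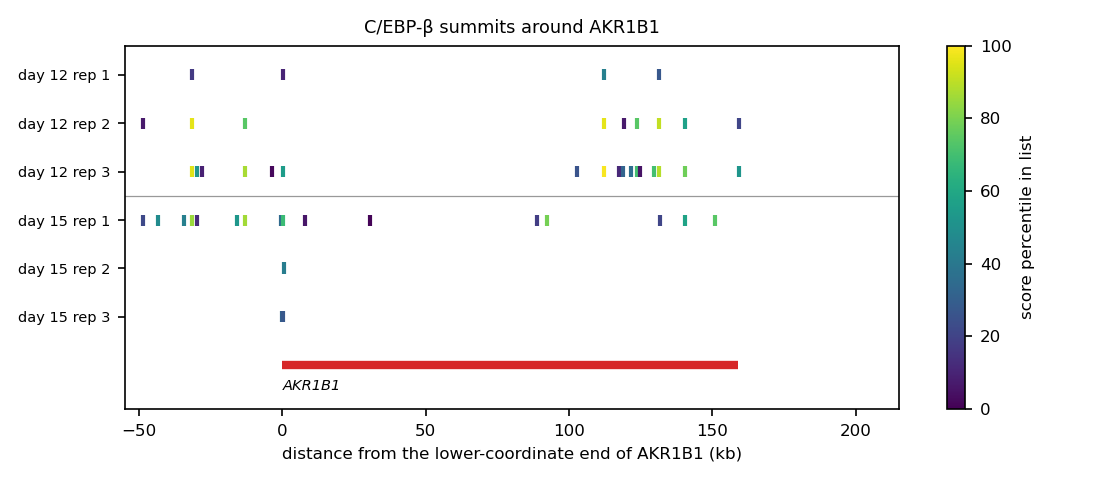
C/EBP-β summits of each library (rows) by distance in kb from the lower-coordinate end of AKR1B1 (red bar), up to 51 kb outside the gene, coloured by score percentile within the list. The 3 day 12 rows have marks at about 112 kb that the 3 day 15 rows lack, and day 15 replicates 2 and 3 have marks only near 0.

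PTGIS, CBR1 and HPGD had no site within 5 kb in any set A library. PTGIS, prostacyclin synthase (chromosome 17, 51153151 to 51200515), had summits 4.1 kb below its lower end in day 12 replicates 2 and 3, at percentiles 21 and 57. The nearest day 15 summit to these was 11.2 kb away. Day 15 replicate 1 was counted through a summit at the other end, 1.8 kb above it at percentile 24. Presence of PTGIS in set B thus does not rest on 1 shared site. A region just past the 5 kb limit, 5.1 kb above its upper end, had summits in the 3 set B libraries at percentiles 66, 81 and 46. CBR1, carbonyl reductase (chromosome 13, 199617406 to 199622407), had a single region within 5 kb, 3.6 kb below its lower end, with percentiles 44 and 78 in day 12 replicates 2 and 3 and 76 in day 15 replicate 1. A region 28.5 kb below CBR1, inside SETD4, had summits in 3 of 3 day 15 libraries, at percentiles 41, 45 and 57, and in 0 of 3 day 12 libraries, the nearest of which lay 4.42 kb away. HPGD, the main prostaglandin-inactivating dehydrogenase (chromosome 14, 15718261 to 15773534), had 5 regions within 5 kb, each from 1 library. Its most recurrent region lay 10.0 kb above the upper end (15783533 to 15783612), with percentiles 76 and 95 in day 12 replicates 2 and 3 and 85 and 39 in day 15 replicates 1 and 2. No other protein-coding gene is annotated within 100 kb of HPGD, the nearest being CEP44 at 105.0 kb.

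Taken over 50 kb of either gene end, all 10 genes had a summit in at least 2 of 3 libraries of each day, against 80.0% of all protein-coding genes on day 12 and 74.2% on day 15. In all 6 libraries this held for 5 of 10 (PLA2G4A, PTGS2, PTGES2, PTGES3 and AKR1B1), against 40.5%. To set lists of different length beside each other, summits within 50 kb were divided by list length and given per 10000 summits. Day 15 had the higher mean for 6 of the 10 genes, against 53.3% of all protein-coding genes, and the lower mean for 4, against 40.0%. The median difference between days (day 15 minus day 12) was 0.0772 for the 10 genes and 0.0475 for all genes.

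AKR1B1 showed the widest difference between days in the density of summits. It had 6.1, 2.7 and 2.77 summits per 10000 in day 12 replicates 1 to 3 and 2.0, 0.605 and 1.67 in day 15 replicates 1 to 3. All 3 day 12 values lay above all day 15 values, with means of 3.86 ± 1.94 and 1.42 ± 0.728 (SD, n = 3 each). The difference of -2.43 had a two-sided exact permutation p = 0.1, the smallest that 3 against 3 libraries allow (Benjamini-Hochberg adjusted over 19550 genes, 0.755). It was -4.96 within set A and -0.742 within set B, and -1.31 without day 12 replicate 1, in which the density rests on 4 summits. Within 20 kb of the gene ends the difference was near 0 (-0.00574, exact permutation p = 1), so it rests on summits farther from the ends.

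PLA2G4A also had all day 12 values above those of day 15, at 1.53, 1.5 and 1.21 against 0.998, 1.21 and 0.836 summits per 10000 (means 1.41 ± 0.174 and 1.01 ± 0.188, SD, n = 3 each), though day 12 replicate 3 and day 15 replicate 2 were equal to the digits shown. These values rest on 1, 5 and 7 summits on day 12 and 7, 2 and 1 on day 15. The single summits of day 12 replicate 1 and day 15 replicate 3 both lie at the PTGS2 site. Their values of 1.53 and 0.836 thus differ through list length alone. The PLA2G4A difference of -0.398 (exact permutation p = 0.1, adjusted 0.755) was -0.502 within set A and -0.359 within set B, but it was near 0 with scores of at least 5 (-0.0257), -0.13 within 20 kb and 1.02 with lists of equal length. CBR1 had the reverse order, 0, 0.601 and 0.346 on day 12 and 0.713, 0.605 and 0.836 on day 15, a difference of 0.402 (exact permutation p = 0.1, adjusted 0.755). In CBR1 the day 12 values rest on 0, 2 and 2 summits and those of day 15 on 5, 1 and 1, and the direction turned within 20 kb (-0.121). Groups that did not overlap were thus found for 3 of 10 genes, against 13.2% of all protein-coding genes. Of all 19550 genes, 0 passed an adjusted p of 0.05 in this exact permutation test and 0 had an unadjusted p under 0.05, as the design cannot give one.

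PTGES2 had 1.53, 1.8 and 1.21 summits per 10000 on day 12 and 1.43, 4.23 and 3.34 on day 15. These values rest on 1, 6 and 7 summits on day 12 and 10, 7 and 4 on day 15. The summits include those of regions inside SLC25A25, at 268560913 to 268561259 and 268565552 to 268565808. Each of these regions had summits in all libraries but day 12 replicate 1. Day 15 replicate 3 had summits at both 268560913 and 268561259, so the lower region gave more than 1 of its summits. The 2 day 15 libraries of set A were high, and day 15 replicate 1 lay within the day 12 range. The PTGES2 difference of 1.49 (exact permutation p = 0.3, adjusted 0.922) was 2.26 within set A and -0.0819 within set B, so it did not hold within set B, and it was 0.346 within 20 kb. PTGES3 was higher on day 15 by 0.688 (p = 0.2 by the exact permutation test, adjusted 0.831), with overlapping values. That difference was 1.97 with scores of at least 5, 1.18 within 20 kb, 1.53 with lists of equal length, 1.07 without day 15 replicate 2 and 0.304 without day 15 replicate 3. For PTGS2 the values were 1.53, 0.901 and 0.52 on day 12 and 0.998, 0.605 and 1.67 on day 15, which overlapped fully (difference 0.11, exact permutation p = 0.7, adjusted 1). With a limit of 51 kb, which takes in the whole region 50 kb below the gene, the PTGS2 difference became -0.197. PTGS1, PTGES, PTGIS and HPGD differed by -0.921, 0.0446, 0.58 and -0.043, with exact permutation p between 0.4 and 1 (adjusted 0.922 to 1). For PTGS1, day 12 replicate 1 stood at 3.05, from 2 summits, and the other 5 libraries between 0 and 0.836.

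**Figure D5:**
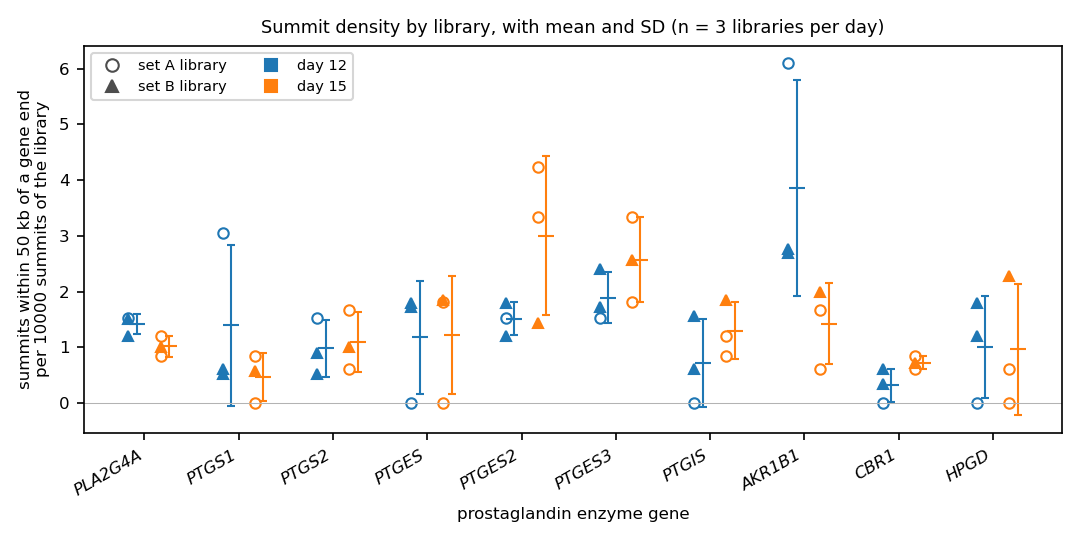
Summits within 50 kb of either gene end per 10000 summits of the library for each prostaglandin enzyme gene, on day 12 (blue) and day 15 (orange); points are libraries, open circles set A and filled triangles set B, and bars give mean and SD (n = 3). The groups do not overlap for PLA2G4A, AKR1B1 and CBR1, and the PTGES2 values of day 15 range from 1.43 to 4.23.

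Per 100 kb of window, the genes ranged from 0.492 (CBR1) to 2.14 (PTGES2) summits per 10000, averaged over the 6 libraries, with PTGES3 at 1.82 and AKR1B1 at 1.32. The median was 0.846 for the 10 genes and 0.624 for all protein-coding genes. PTGES2 was at or above 92.4% of all genes and PTGES3 at or above 89.0%, and the windows of both hold ends of other genes (SLC25A25 and LCN2 beside PTGES2, ATP5B, BAZ2A and NACA beside PTGES3). The part of those neighbours in the densities was not tested.

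Around and inside the 10 genes lay 154 distinct regions. Of these, 30.5% had summits in 3 or more libraries and 1.95% in all 6, against 28.2% and 2.73% of the 99058 regions of all chromosomes. The regions of all 6 libraries were the pair at PTGS2 and the one inside NACA. Regions seen in every day 12 list and in none of day 15 made up 2 of the 154 (beside PTGS1 and inside AKR1B1), or 1.3%, against 0.139% of all regions, and the reverse marked 1 (below CBR1), or 0.649%, against 0.9%. Recurrent regions, those of 3 or more libraries, included a set A library in 7 of 9 cases within 2 kb of a protein-coding gene end, and in 17 of 38 cases (44.7%) farther away. Over all chromosomes these shares were 80.4% and 45.9%, so the regions at the prostaglandin genes divided between sets much as regions elsewhere did.

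Other genes of eicosanoid metabolism were taken from a list of 20, of which 18 were on the chromosomes of the gene table (PTGDS and PLA2G4C were not used here). A summit within 5 kb in at least 2 of 3 libraries was found for 8 of 18 on day 12 and 8 of 18 on day 15, against 38.1% and 46.3% of all protein-coding genes, and 6 were counted on both days, against 30.5%. ALOX12 (a lipoxygenase), ALOX5AP (the activating protein of 5-lipoxygenase), LTA4H (leukotriene A4 hydrolase) and PLA2G6 (a calcium-independent phospholipase A2) had summits in all 6 libraries, which makes 4 of 18 against 13.1%. LTC4S, leukotriene C4 synthase, had them in 1 of 3 day 12 and 3 of 3 day 15 libraries. Presence in 3 of 3 day 15 and at most 1 of 3 day 12 libraries thus held for 1 of 18, against 8.95%. None of the 6 lists had a summit within 5 kb of ALOX5, ALOX15, HPGDS, PLA2G2A, PLA2G4B, PLA2G4F or FAM213B, which makes 7 of 18 against 29.5% of all protein-coding genes.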

How the data were processed

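Endometrial tissue was fixed with formaldehyde and sonicated, and libraries were amplified and size-selected, per the labels' protocols. The submitters' processing notes name the build susScr11 and the tools MACS2 2.1.2, Bowtie2 2.3.5.1 and SAMtools 1.9. Not given in the sources used here are the calling threshold, how the input was used and whether duplicates were removed. In the deposited lists the score is on a −log10 scale (of p or q, which is not stated) and was used for ranks and cut-offs inside 1 list at a time. Of the deposited summits, the 196220 on the 18 autosomes, X and Y were used, counted from 1.

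Summits within 5 kb and 50 kb of either end of each of 19550 protein-coding genes were counted in Python 3.11.15 (numpy 2.4.6, pandas 2.3.3), the gene body counting only where it lies in those windows. Days were compared by exact permutation of libraries for every gene, with Benjamini-Hochberg adjustment over all genes; the code was tested on simulated data. No read counts are given, so no interval for depth could be made. Regions are summits of any library joined within 200 bp.

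The 10 genes, the further genes and the tests were chosen with earlier results of these data known. All 10 are named; of the further genes, those with a summit in all 6 libraries, in none, or in 3 of 3 libraries of 1 day and at most 1 of the other. Alternatives were a score of at least 5, the 6557 highest-scoring summits of each list, other windows, presence in every library of a day, leaving out single replicates, the replicate block and means within processing sets. The window of 51 kb was chosen after seeing the data. Planned motif searches need sequence, which was not used here.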

Additional observations from a re-analysis of the deposited data

How the results depend on the processing

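The counts of genes with a summit within 5 kb on day 12, on day 15 and in all 6 libraries were 7, 4 and 2. They became 3, 4 and 0 with a score of at least 5, 0, 2 and 0 with equal lists, 2, 3 and 2 within 1 kb, and 10, 10 and 5 within 50 kb. Requiring all 3 libraries of a day gave 2 on day 12. Leaving out each library in turn gave 2 to 7 genes on day 12 (2 without day 12 replicate 2 or 3) and 2 to 4 in all remaining libraries (4 without day 12 replicate 1), and 4 on day 15 throughout. Over all protein-coding genes the shares were 38.1%, 46.3% and 13.1%, and 9.68%, 20.3% and 3.53% with equal lists. Within 50 kb they were 80.0%, 74.2% and 40.5%. For the other settings the shares over all genes are not given here, so those counts are not a trait of the 10 genes. Of the 10 genes, 6 had a higher summit density within 50 kb on day 15, and the alternatives gave 4 to 7. Same-numbered libraries did not deviate together (correlations over genes of -0.544, -0.212 and -0.415). Each such pair joins a set A and a set B library, and pairs of a day 12 and a day 15 library within a set had correlations of 0.235 to 0.512. Pairing by replicate number therefore cannot be told apart from set. A replicate block gave 6, and its exact sign-flip p cannot go below 0.25. Directions turned for PLA2G4A with equal lists (1.02) and for CBR1 within 20 kb (-0.121). PTGS2 turned within 20 kb (-0.106), within 51 kb (-0.197), within processing sets (-0.0495) and on leaving out single libraries (range -0.181 to 0.381, negative without day 12 replicate 3 or day 15 replicate 3). PTGES turned within 20 kb (-0.223) and on leaving out libraries (-0.544 to 0.656, negative without day 12 replicate 1 or day 15 replicate 1 or 2). HPGD turned with a score of at least 5 (0.135), within 20 kb (0.0352), within processing sets (0.538) and on leaving out libraries (-0.702 to 0.438, positive without day 12 replicate 2 or 3 or day 15 replicate 2 or 3). The causes were not tested. For PTGS1, PTGES2, PTGES3, PTGIS and AKR1B1 the sign did not turn under the alternatives run, but values came near 0 for AKR1B1 (-0.00574) and PTGIS (0.0556) within 20 kb and for PTGS1 without day 12 replicate 1 (-0.0914). Taken within set B alone, PTGS1 (0.01) and PTGES2 (-0.0819) had the opposite sign.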
